A study of Mus musculus with 9 samples.

Results

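Kinesins are motor proteins that use ATP to move along microtubules. Members were chosen by symbol in the gene count table, as every entry named Kif or Kifc followed by a number, which gave 41 of 23358 entries. Some kinesins assemble and separate the mitotic spindle and close the midbody at cytokinesis. Others, such as kinesin-1 with its Kif5 heavy chains and kinesin-2 with its Kif3 chains, carry vesicles, mitochondria and ciliary cargo, mostly toward microtubule plus ends, while the Kifc motors have their motor domain at the carboxyl end and move toward minus ends. The 41 genes were described in 4 classes: 14 mitotic, 15 transport, 6 ciliary or Hedgehog-related, and 6 others.

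RNA was sequenced from cultured mesenchymal stem cells, which are stromal cells of the bone marrow, isolated from adult C57BL/6 mice and used at passages 4 to 10. In the siBcat group, cells received an siRNA against beta-catenin, the product of Ctnnb1, a partner of cadherins at cell contacts that also acts with TCF/LEF factors in Wnt signalling. In the GSK126 group, cells received a non-targeting siRNA with 5 µM GSK126, a small molecule that inhibits the histone H3 lysine 27 methyltransferase Ezh2, and in the siCTL group the non-targeting siRNA alone. The treatment label of siBcat also lists 5 µM GSK126, whereas its titles and source names give it no inhibitor; the groups follow the titles. All cells were kept in osteogenic medium, containing ascorbic acid and beta-glycerophosphate, and were lysed on day 4 after transfection. Each group had 3 libraries, described as biological replicates in the series design, and no source used here says whether they came from separate animals.

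Summed counts per library were 42324200 to 55898774, with 0 odd values among the counts. All counts were thus even, so a count may stand for fewer independent reads than its value. They are given as deposited, and why they are even was not tested. In the siBcat libraries, the targeted gene Ctnnb1 (GRCm38 chromosome 9, 120929216 to 120960507) had 19.1 to 19.3 CPM (counts scaled to library size by the TMM method) against 854.5 to 878.9 CPM in siCTL libraries. Of 13 stromal markers, 12 were present in every library and Thy1 was at 0 in all 9. Of 8 haematopoietic markers, Ptprc and Cd52 were at 0 in all 9 libraries, and the list summed to 12.0 to 12.7 CPM in siBcat, 9.40 to 11.8 CPM in GSK126 and 11.7 to 14.3 CPM in siCTL, mostly Cd14. Of 5 tested from that list with siBcat against siCTL, 2 were called higher and 1 lower, where 17.7% and 17.5% of all genes were called. Lyz2 was 1 of the 2 called higher (adjusted p = 0.00239), on 12 to 24 counts in siBcat libraries, 8 to 12 in GSK126 libraries and 0 to 4 in siCTL libraries. Of 6 endothelial markers, Tie1 was at 0 in all 9, and the list summed to 1.66 to 2.23 CPM in siBcat, 1.47 to 2.26 CPM in GSK126 and 1.45 to 2.03 CPM in siCTL. Of the 2 tested from the endothelial list, 1 was called higher and 1 lower with siBcat against siCTL, beside the same shares of all genes. Of 6 skeletal muscle markers, Myog was at 0 in all 9, and the list summed to 10.3 to 10.8 CPM in siBcat, 7.30 to 7.92 CPM in GSK126 and 1.76 to 1.94 CPM in siCTL. That sum was nearly all Acta1, an actin, which rose by 2.56 ± 0.11 on the log2 scale with siBcat (adjusted p = 3.91e-09) and by 2.10 ± 0.11 with GSK126 (7.66e-08). The part of such cells in the kinesin results was not tested. GSK126 replicate 3 stood apart from its group by transcript length: its median log2 deviation from the group was 0.17 for the shortest genes and -0.23 for the longest, and length accounted for 21.4% of the variance of its deviations, against 0.05 to 9.24% in the other 8 libraries. Where leaving it out changed a kinesin's call, the value without it is given. In bulk RNA, fewer cells of a type and less RNA per cell cannot be told apart.

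Of the 41 kinesins, 34 had enough counts to test, each with at least 24 counts in every library, and 7 were filtered out. Calls below come from edgeR's quasi-likelihood test with Benjamini-Hochberg adjustment over all 13240 genes tested, at an adjusted p under 0.05. With siBcat against siCTL, 5 kinesins rose and 4 fell, where 35.2% of all genes tested were called, 17.7% higher and 17.5% lower. With GSK126 against siCTL, 16 kinesins rose and 5 fell, where 25% of all genes were called, 14.3% higher and 10.7% lower. With siBcat against GSK126, 5 kinesins were higher and 18 lower, where 41.2% of all genes were called, 19.3% higher and 21.9% lower. The groups were fully separated for 11 kinesins above and 10 below siCTL with siBcat (28% and 27.2% of all genes), for 18 above and 7 below with GSK126 (21.9% and 20.2%), and for 6 above and 21 below in siBcat against GSK126 (25.3% and 27.2%). Some of these counts fell when 1 library was left out. The 4 lower calls with siBcat became 0 without siBcat replicate 3, 1 without siBcat replicate 2, siCTL replicate 1 or siCTL replicate 2, and 2 without siBcat replicate 1 or siCTL replicate 3, and the 5 higher calls became 3 without siCTL replicate 2. Without siCTL replicate 1, 2 kinesins were called lower with GSK126, against 5 with all libraries. There were 3 without siBcat replicate 3 and 3 without siCTL replicate 3, the latter including Kifc2, newly called there (adjusted p = 0.0317). The 2 comparisons against siCTL share the control libraries, so their values are set side by side and their likeness was not tested.

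**Figure D1:**
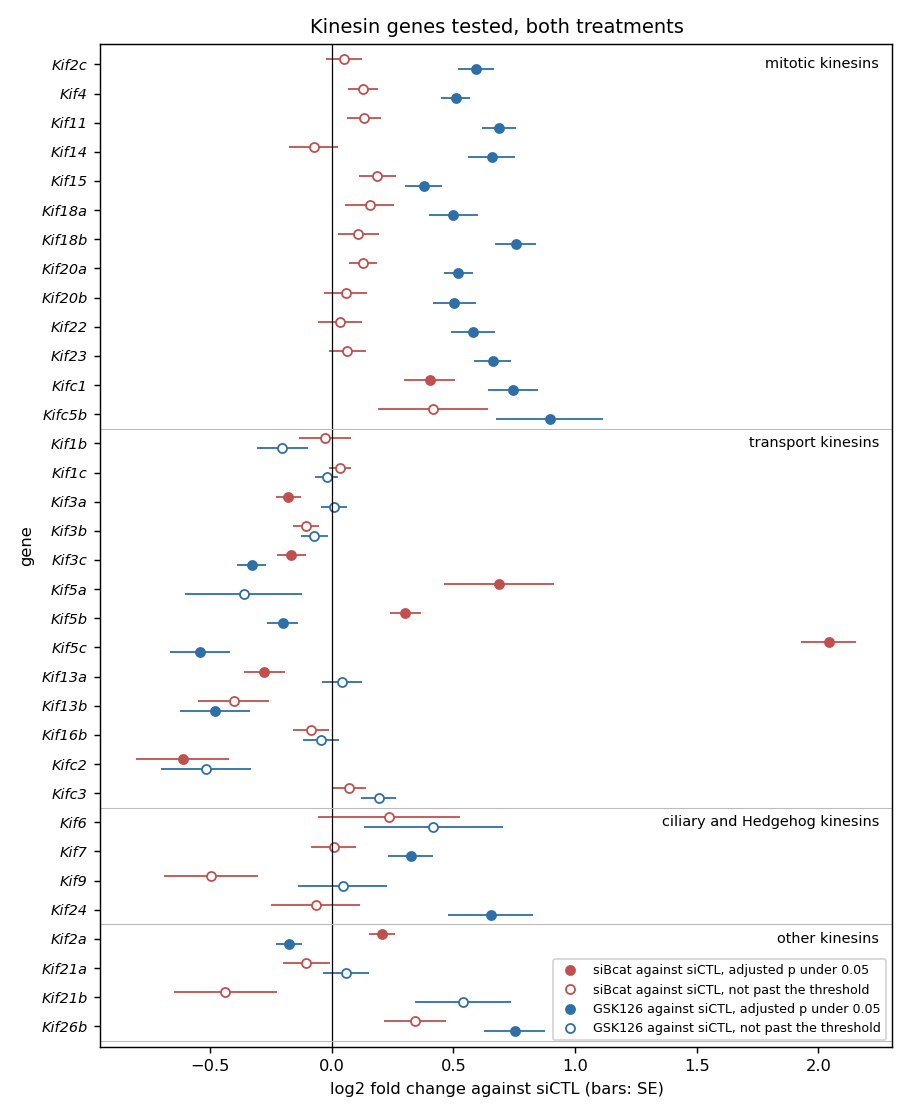
The log2 fold change of each of the 34 kinesins tested is plotted by class, for siBcat against siCTL and for GSK126 against siCTL, with bars for the standard error; filled points passed an adjusted p under 0.05 and open points did not. The 13 mitotic kinesins all lie right of 0 with filled points for GSK126, and Kif5c lies farthest right for siBcat, at 2.04.

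Levels between genes were compared per kilobase (kb) of coding length. Kif1c, a kinesin-3 motor of vesicles and focal adhesion proteins, stood first in every group, at 66.2 ± 0.865 CPM per kb in siBcat, 63.8 ± 0.450 in GSK126 and 64.7 ± 2.82 in siCTL (SD, n = 3 each). It made up 22.5, 22.0 and 22.4% of all kinesin CPM per kb in siBcat libraries, 20.4, 20.5 and 22.1% in GSK126 libraries and 23.2, 22.9 and 22.2% in siCTL libraries. Kif5b, the widely expressed heavy chain of kinesin-1, came second. Kifc3, a minus-end motor found at junctions and the Golgi, and Kif3b, a kinesin-2 chain, followed in siCTL at 18.9 ± 1.99 and 18.6 ± 0.174 CPM per kb, a difference within their spread. The first mitotic kinesin in that order was Kif20a, at 13.7 ± 0.488 CPM per kb in siCTL, and the lowest of the 34 was Kif5a, at 0.144 ± 0.00933.

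The mitotic kinesins were the largest group to move. All 13 that were tested rose with GSK126, where 14.3% of all genes were called higher. Their median was 0.59 on the log2 scale, against 0.01 over all 13240 genes. Each had its 3 GSK126 libraries above its 3 siCTL libraries, which held for 21.9% of all genes. With siBcat against siCTL, 1 of the 13 rose, where 17.7% of all genes were called higher. The median was 0.13, against 0.00 over all genes, and 12 of the 13 values were above 0, as were 6670 of all 13240. For 6 of the 13, all siBcat libraries lay above all siCTL libraries, which held for 28% of all genes. Calls numbered 2 without siCTL replicate 1 or GSK126 replicate 3 or with only the 2 groups compared, and 5 with the trend on coding length removed. The call gained without GSK126 replicate 3 was that of Kif20a, at 0.13 (adjusted p = 0.0216, against 0.114 with all libraries). Set directly against GSK126, siBcat was lower in 11 of the 13, where 21.9% of all genes were called lower. The median was -0.48, against -0.01 over all genes. Each of the 13 had its siBcat libraries below its GSK126 libraries, which held for 27.2% of all genes. The 13 calls of GSK126 against siCTL were also made under each of the 21 alternatives tried, including without GSK126 replicate 3. The class was drawn with earlier results of these data known. Kif2a, which also acts at spindle poles, was placed outside it and fell with GSK126 (-0.18, adjusted p = 0.0293). Cenpe, a mitotic motor gene outside the symbol rule, rose (0.27, adjusted p = 0.0121), a call lost in 2 alternatives.

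The RefSeq promoters of the kinesins (GRCm38.p6, 250 bases before to 50 bases after the transcript start) were searched on both strands, since members moved together. The letters searched were CCAAT, the box bound by NF-Y; TTTGAA and TTTAAA, the cell cycle genes homology region (CHR) bound by the DREAM and B-Myb complexes of the cell cycle; TTTGGCGC and TTTCCCGC, as E2F sites; and ATCAAAG, as a TCF/LEF site, through which beta-catenin acts. A promoter was at hand for 33 of the 41 kinesins, 13 mitotic and 20 others. The 13 were those of Kif2b, which had 0 counts in every library, and of the tested mitotic kinesins other than Kif20a. No promoter was at hand for Kif5a, Kif5b, Kif13b, Kif19a, Kif20a, Kif21b, Kifc2 or Kifc3, so Kif5c was the only Kif5 gene searched. The 100 bases before the start are shown for Kif11, Kif14 and Kif18b. These are 3 of the mitotic kinesins among the 6 kinesins with the smallest p values in siBcat against GSK126. They are also shown for Kif5c, which rose most with siBcat, and for Kif26b, 1 of 3 kinesins outside the mitotic class that rose with GSK126. Kif7 and Kif24, which also rose, had no CHR in their windows, so Kif26b was the only one of the 3 with a CHR. Capitals mark CCAAT and the CHR, which read ATTGG and TTCAAA where they lie on the other strand. The CHR of Kif18b lies just after the start, past the bases shown. The Kif14 window was taken from its RefSeq start and lies inside its GENCODE span, which begins upstream at 136466343. Whether that window acts as a promoter was not tested.
Kif11, chr19:37376282-37376381, plus strand: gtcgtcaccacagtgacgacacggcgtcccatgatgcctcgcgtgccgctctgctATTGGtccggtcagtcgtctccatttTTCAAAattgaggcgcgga
Kif14, chr1:136467748-136467847, plus strand: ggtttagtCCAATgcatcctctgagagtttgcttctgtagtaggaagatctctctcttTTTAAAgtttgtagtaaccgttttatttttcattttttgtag
Kif18b, chr11:102925125-102925224, minus strand: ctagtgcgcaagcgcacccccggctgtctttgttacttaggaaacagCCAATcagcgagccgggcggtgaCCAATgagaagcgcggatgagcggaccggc
Kif26b, chr1:178529025-178529124, plus strand: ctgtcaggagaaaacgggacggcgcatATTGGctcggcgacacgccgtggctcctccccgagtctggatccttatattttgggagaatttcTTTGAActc
Kif5c, chr2:49619186-49619285, plus strand: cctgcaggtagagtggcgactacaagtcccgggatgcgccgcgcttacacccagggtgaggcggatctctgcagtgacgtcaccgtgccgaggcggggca

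A CHR was found in 11 of the 13 mitotic promoters (84.6%), in 2 of the 20 other kinesin promoters (10.0%) and in 27.8% of 27025 promoters of all genes. In 10 of the 13 mitotic promoters it lay between 50 bases before and 50 bases after the start, where 8.2% of all promoters had one. CCAAT was in 9 of the 13 mitotic promoters, in 7 of the 20 others and in 37.9% of all promoters, and 8 of the 13 mitotic promoters held both motifs, against 10.9% of all. Kifc1 and its near copy Kifc5b, whose matches lie in the same order, each count in the 11, the 10 and the 8. The Kif14 window, inside its GENCODE span, also counts in each. The promoter of Kif2b held CCAAT and no CHR. The other promoters with a CHR were those of Kif26b and Kif27. An E2F site was in 2 of the 13 mitotic promoters (Kif15 and Kif18a), in 0 of the 20 others and in 1.6% of all, and the TCF/LEF letters were in 0 of the 33 kinesin windows and 3.7% of all. Matches of different motifs did not overlap in these windows. A match describes the letters and is not evidence of binding, and the absence of a match says only that the letters are not in the window.

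**Figure D2:**
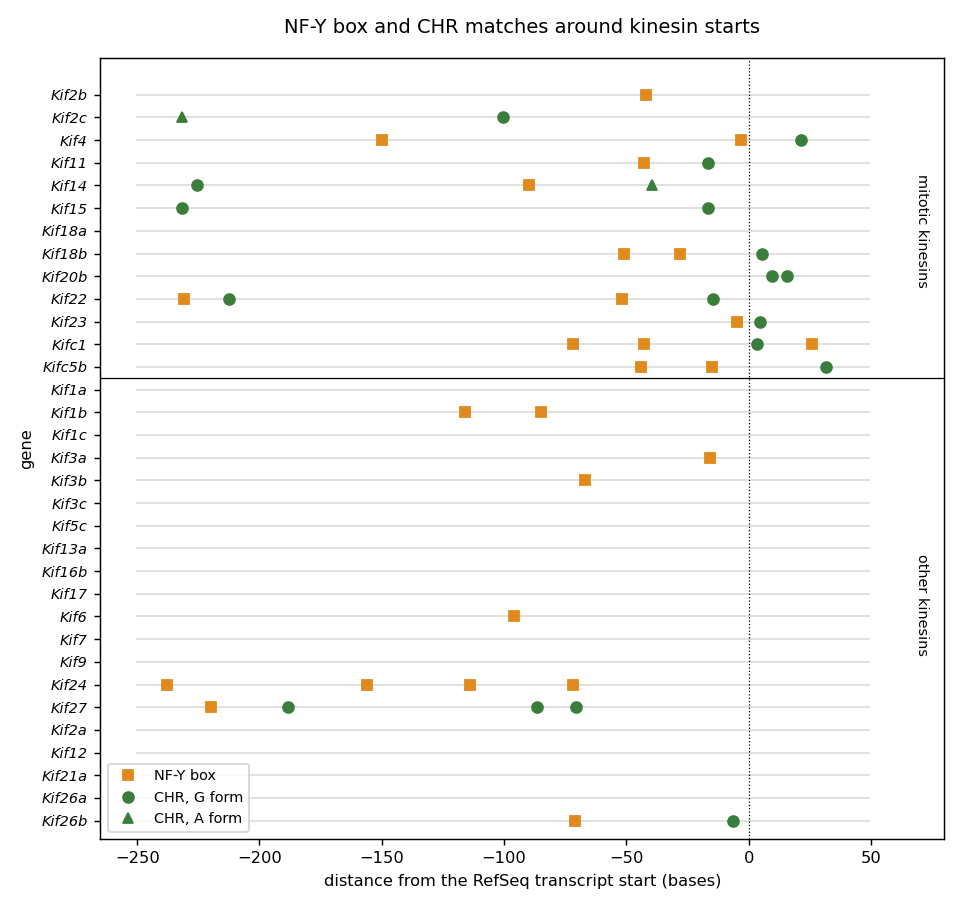
Each row is a kinesin promoter of RefSeq, and symbols mark the middle of each match by its distance from the transcript start, in bases; squares are the NF-Y box CCAAT, and circles and triangles are the CHR forms with G and with A. Matches of the CHR lie near the start in 10 of the 13 mitotic promoters, drawn above the line, and are present in 2 of the 20 promoters drawn below it.

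Kif11, the plus-end motor that pushes spindle poles apart (chromosome 19, 37376403 to 37421859), had the smallest p of the mitotic kinesins with GSK126. It measured 36.0, 33.4 and 32.7 CPM in siBcat libraries, 50.2, 54.1 and 45.6 CPM in GSK126 libraries, and 30.6, 31.5 and 31.0 CPM in siCTL libraries. The GSK126 libraries were above all others, and the siBcat libraries lay slightly above siCTL without overlap. The log2 fold change was 0.69 ± 0.07 (SE) for GSK126 against siCTL (adjusted p = 1.61e-05) and -0.55 ± 0.07 for siBcat against GSK126 (adjusted p = 3.56e-05). For siBcat against siCTL it was 0.13 ± 0.07 (adjusted p = 0.156).

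Kif18b, a motor that shortens astral microtubules, had 12.2, 11.3 and 11.8 CPM in siBcat, 19.5, 19.2 and 16.6 CPM in GSK126 and 11.2, 11.2 and 10.4 CPM in siCTL. Its GSK126 libraries were clear of the rest, with a log2 fold change of 0.76 ± 0.08 against siCTL (adjusted p = 3.42e-05), and siBcat was 0.65 ± 0.08 lower than GSK126 on that scale (adjusted p = 4.82e-05). Kif2c, which takes tubulin off microtubule ends at centromeres, had 16.5, 18.2 and 16.3 CPM in siBcat, 25.4, 25.3 and 23.4 CPM in GSK126 and 16.2, 15.6 and 17.4 CPM in siCTL. The siBcat and siCTL libraries of Kif2c overlapped, and GSK126 was higher than siCTL by 0.59 ± 0.07 (adjusted p = 9.42e-05).

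A further set of mitotic kinesins acts late in mitosis, at the central spindle and midbody. Kif20a, which brings the chromosomal passenger complex to the central spindle, had 59.5, 55.2 and 60.1 CPM in siBcat, 78.8, 78.7 and 71.9 CPM in GSK126 and 55.2, 53.4 and 51.4 CPM in siCTL. Kif23, the motor of centralspindlin, had 20.0, 19.7 and 18.7 CPM in siBcat, 30.8, 29.3 and 28.4 CPM in GSK126 and 20.7, 17.4 and 17.8 CPM in siCTL. Kif4, a chromosome-bound motor that shortens the central spindle, had 25.5, 24.0 and 23.9 CPM in siBcat, 31.7, 33.2 and 30.8 CPM in GSK126 and 21.7, 23.2 and 22.3 CPM in siCTL. For these 3 genes the GSK126 libraries were above those of both other groups, and only for Kif23 did siBcat and siCTL overlap. The log2 fold changes of GSK126 against siCTL were 0.52 ± 0.06 for Kif20a, 0.66 ± 0.08 for Kif23 and 0.51 ± 0.06 for Kif4, with adjusted p = 4.42e-05, 4.42e-05 and 7.17e-05. Exons of Kif20a and Kif4 share 29.3% and 15.1% of their bases with genes on the opposite strand (Cdc23 and Pdzd11), and whether the counting used strand is not given in the sources used here.

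Kif14, which recruits citron kinase to the midbody, had 12.0, 11.8 and 11.8 CPM in siBcat, 19.2, 22.4 and 17.5 CPM in GSK126 and 13.7, 12.3 and 11.5 CPM in siCTL. GSK126 stood above both other groups, which overlapped. It was the mitotic kinesin furthest below GSK126 in siBcat, with a log2 difference of -0.73 ± 0.10 (adjusted p = 6.8e-05), and its rise with GSK126 was 0.66 ± 0.10 (adjusted p = 0.000368).

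**Figure D3:**
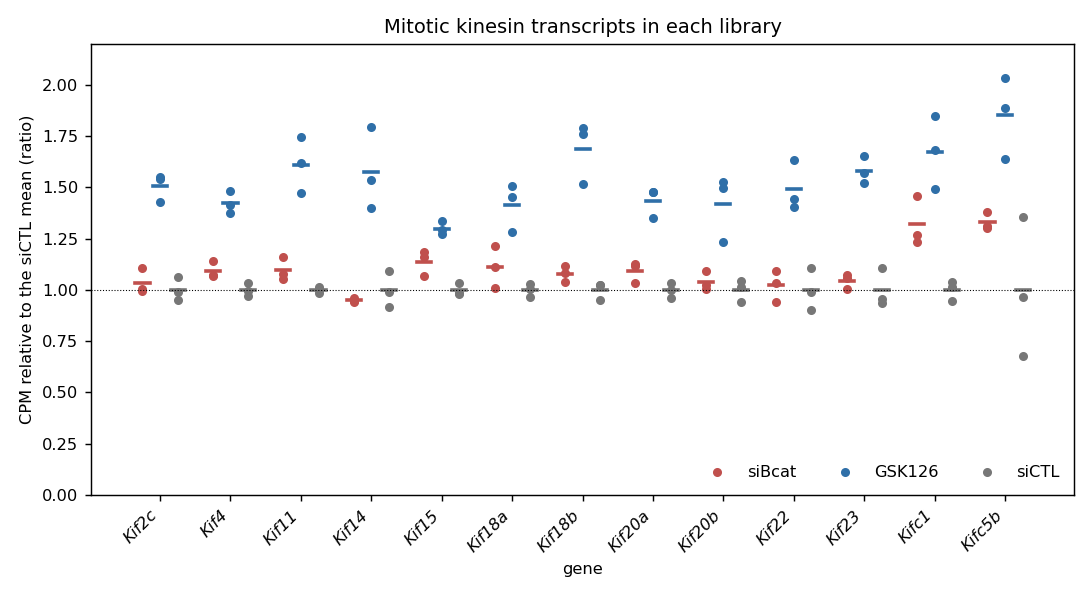
The CPM of each mitotic kinesin in each library is divided by the siCTL mean of that gene; points are libraries, short lines are group means, and the dotted line is 1. GSK126 points lie above the siCTL points for each of the 13 genes, while siBcat points lie below the GSK126 points for each, with Kifc1 the one gene called higher than siCTL.

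Kifc1, a minus-end motor that clusters spindle poles, was the mitotic kinesin that rose with siBcat. It had 8.96, 9.23 and 10.6 CPM in siBcat, 12.2, 10.8 and 13.4 CPM in GSK126 and 7.56, 7.36 and 6.87 CPM in siCTL, so the siBcat libraries lay between both other groups without overlap. The rise over siCTL was 0.40 ± 0.10 with siBcat (adjusted p = 0.00949, with a highest value of 0.049983 among the alternatives) and 0.75 ± 0.10 with GSK126 (adjusted p = 0.000218). The siBcat level was 0.34 ± 0.10 below GSK126 (adjusted p = 0.0158), a call lost without siBcat replicate 1 (0.0665) or replicate 2 (0.0620), in a range of 0.00660 to 0.0665 over the alternatives. Its near copy Kifc5b shares 45.8% of the 50-base words of Kifc1, so reads may be split between them; Kifc5b rose by 0.90 ± 0.22 with GSK126 (adjusted p = 0.0103), and its siBcat value was 0.42 ± 0.23 above siCTL (adjusted p = 0.18, and 0.0347 without siCTL replicate 1).

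The other mitotic kinesins also rose with GSK126. Kif22, a chromosome arm motor, rose by 0.58 ± 0.09 on the log2 scale, and Kif20b, a cytokinesis motor, by 0.50 ± 0.09, with adjusted p = 0.000524 and 0.0012. Kif18a, which damps chromosome oscillations, rose by 0.50 ± 0.10 (adjusted p = 0.00316). Kif15, which helps keep spindle poles apart, had the smallest change of the class, at 0.38 ± 0.08 (adjusted p = 0.00312). In siBcat against GSK126, Kif22 was lower by 0.55 and Kif20b by 0.45 (adjusted p = 0.000361 and 0.00133), whereas Kif15, at -0.19 (adjusted p = 0.0592), and Kifc5b, at -0.48 (adjusted p = 0.0891), were not past the threshold. Kif18a, at -0.34 (adjusted p = 0.0144), lost its call without GSK126 replicate 1 (0.0517), GSK126 replicate 2 (0.0565) or siBcat replicate 1 (0.0682), in a range of 0.00283 to 0.0682. The class member not tested, Kif2b, had 0 counts in all 9 libraries.

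Most partners of these motors also rose with GSK126. Of 34 mitotic partner genes in the table, which include kinases, cyclins, kinetochore proteins and cytokinesis factors, 31 rose and 1 fell with GSK126 against siCTL, where 14.3% of all genes were called higher and 10.7% lower, with a median log2 fold change of 0.63. Racgap1, the GTPase-activating partner of Kif23 in centralspindlin, rose by 0.68 ± 0.06 (adjusted p = 3.14e-06), Ccna2, cyclin A, by 0.85 ± 0.06 (5.65e-07), and Top2a, topoisomerase II, by 0.63 ± 0.05 (3.7e-06). The gene that fell was Numa1, which anchors dynein at spindle poles, at -0.23 ± 0.06 (adjusted p = 0.0127), and Cit and Lin54 were not past the threshold. Numa1 also fell with siBcat against siCTL, at -0.36 (adjusted p = 0.000451). With siBcat against siCTL, 7 of the 34 rose and 4 fell, where 17.7% and 17.5% of all genes were called, at a median of 0.06: Aurka, a spindle pole kinase, rose by 0.40 ± 0.06 (adjusted p = 0.000386) and Tpx2, its activator, by 0.26 ± 0.06 (0.00313), while Cenpf, a kinetochore protein, fell by 0.38 ± 0.07 (0.000774). In siBcat against GSK126, 31 of the 34 were lower, against 21.9% of all genes.

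Summed over the class, mitotic kinesins came to 248.3, 240.6 and 242.0 CPM in siBcat libraries, 345.0, 349.8 and 322.8 CPM in GSK126 libraries and 229.0, 227.3 and 221.1 CPM in siCTL libraries. The mitotic partners summed to between 1103 and 1132 CPM in siBcat, 1600 and 1683 CPM in GSK126 and 1148 and 1154 CPM in siCTL. The kinesin sum was 0.219, 0.213 and 0.219 of the partner sum in siBcat, 0.206, 0.208 and 0.202 in GSK126 and 0.198, 0.198 and 0.193 in siCTL. The ratios of the 3 groups did not overlap, and they differed far less than the sums between GSK126 and siCTL. These sums are dominated by the most abundant genes and were not tested.

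**Figure D4:**
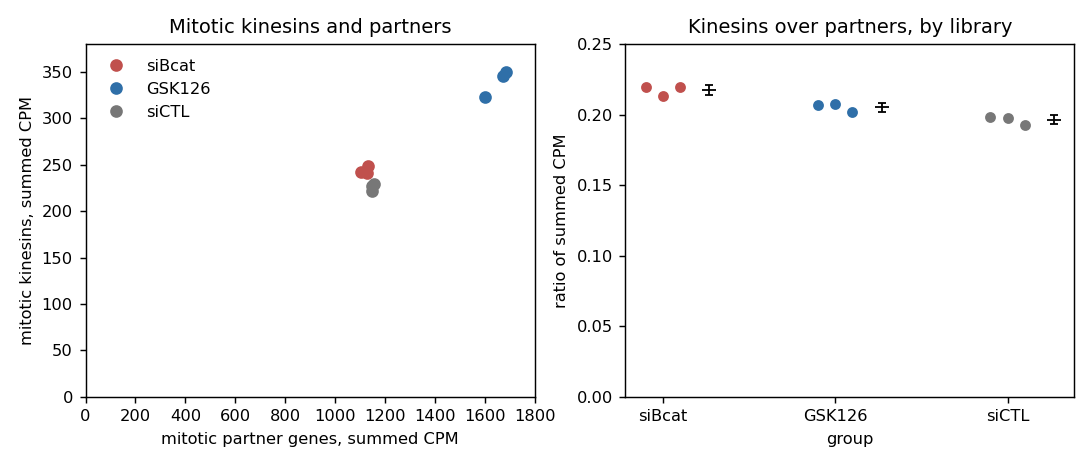
On the left, the summed CPM of mitotic kinesins is plotted against that of their 34 partner genes, 1 point per library; on the right, the ratio of both sums is given by library, with bars for the mean ± SD. GSK126 libraries sit at the upper right, with kinesin sums of 322.8 to 349.8 CPM, and the ratios run from 0.213 to 0.219 in siBcat, 0.202 to 0.208 in GSK126 and 0.193 to 0.198 in siCTL.

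The transport kinesins showed calls in both directions. Of 13 tested, 3 rose and 4 fell with siBcat against siCTL, at a median log2 fold change of -0.09, where 17.7% and 17.5% of all genes were called. With GSK126 against siCTL, 4 fell, where 10.7% of all genes were called lower, at a median of -0.20. No transport kinesin was called higher with GSK126 by the main edgeR fit, DESeq2 or limma-voom, and 1 had an unadjusted p under 0.05 in that direction. Kifc3 and Kif13a were called higher in some other alternatives, given below. In siBcat against GSK126, 4 were higher and 2 lower, where 19.3% and 21.9% of all genes were called, at a median of 0.05. GSK126 replicate 3 lay below its group here, with a median log2 deviation of -0.09 over the class.

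The largest change of any kinesin was in Kif5c (chromosome 2, 49619298 to 49774778), a kinesin-1 heavy chain best known from neurons. It had 18.7, 17.9 and 18.9 CPM in siBcat libraries, 2.69, 3.12 and 3.45 CPM in GSK126 libraries and 4.84, 4.80 and 3.82 CPM in siCTL libraries. The siBcat libraries were far above the rest, and each GSK126 library was below each siCTL library. Against siCTL, Kif5c was 4.12-fold higher with siBcat (log2 2.04 ± 0.11, adjusted p = 5.22e-08, 6.9e-62 to 2.68e-06 over the alternatives) and fell by 0.54 ± 0.12 on the log2 scale with GSK126 (adjusted p = 0.00736, 0.000397 to 0.0317). Between siBcat and GSK126 the difference was 5.99-fold (log2 2.58 ± 0.12, adjusted p = 6.39e-09).

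Markers of neurons, where Kif5c and Kif5a are most abundant, were read beside this change. Of 9 in the table, 2 could be tested, Nefl was at 0 in all 9 libraries, and Rbfox3, Syt1, Nefm and Elavl4 were at 0 in 8. Their summed level was 1.07 to 1.75 CPM in siBcat, 1.38 to 2.12 CPM in GSK126 and 0.509 to 0.970 CPM in siCTL. The siBcat and GSK126 ranges overlapped and lay above siCTL, and the part of such cells in the Kif5c result was not tested. Tubb3, a neuronal tubulin, rose with siBcat by 1.15 ± 0.32 (adjusted p = 0.0139), a call lost without siCTL replicate 3 (0.0604) or siBcat replicate 3 (0.0559), in a range of 0.00358 to 0.0604. Stmn2, a tubulin-binding protein of neurons, had at most 0.0438 CPM in siBcat, 0.459 to 0.601 CPM in GSK126 and at most 0.0452 CPM in siCTL.

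Kif5b, the heavy chain present in most cells (chromosome 18, 6201002 to 6242174), had 323.8, 329.7 and 316.1 CPM in siBcat, 239.6, 240.1 and 203.9 CPM in GSK126 and 261.9, 252.9 and 271.4 CPM in siCTL. No library of one group overlapped with another group, with siBcat highest and GSK126 lowest. It rose 1.23-fold with siBcat (log2 0.30 ± 0.06, adjusted p = 0.00264, at most 0.0248 over the alternatives), and siBcat was 0.50 ± 0.06 above GSK126 (adjusted p = 4.23e-05). The fall with GSK126, -0.20 ± 0.06 (adjusted p = 0.0349), lost its call without siCTL replicate 1 (0.0818), siCTL replicate 3 (0.114), siBcat replicate 2 (0.0545) or siBcat replicate 3 (0.0544), and with library size only (0.0544) or only the 2 groups compared (0.0647), in a range of 0.00341 to 0.114. Without GSK126 replicate 3, the lowest library, the change was smaller, at -0.13 (adjusted p = 0.0106).

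Kif5a, the third heavy chain, was near the lower end of what could be tested, with 1.41, 1.50 and 1.97 CPM in siBcat, 0.636, 0.965 and 0.776 CPM in GSK126 and 1.09, 0.970 and 0.976 CPM in siCTL. It followed the order of Kif5b without overlap between groups. The rise with siBcat was 0.69 ± 0.22 (adjusted p = 0.0305), and it was lost without any 1 of the siCTL libraries (replicate 1, 0.0549; replicate 2, 0.0920; replicate 3, 0.0785) and without siBcat replicate 2 (0.0504) or 3 (0.137), in a range of 0.0159 to 0.137. Against GSK126, siBcat was higher by 1.05 ± 0.23 (adjusted p = 0.00268), and the GSK126 value against siCTL was -0.36 ± 0.24 (adjusted p = 0.29).

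Per kb, the Kif5 genes summed to 56.6, 57.5 and 55.5 CPM in siBcat libraries, 40.2, 40.4 and 34.4 CPM in GSK126 libraries and 44.3, 42.8 and 45.7 CPM in siCTL libraries. Kif5c made up 4.83, 4.55 and 4.97% of that sum in siBcat, 0.976, 1.13 and 1.47% in GSK126 and 1.60, 1.64 and 1.22% in siCTL. Kif5b was thus most of the kinesin-1 heavy chain RNA in every library, and Kif5c remained a small share even where it was highest.

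**Figure D5:**
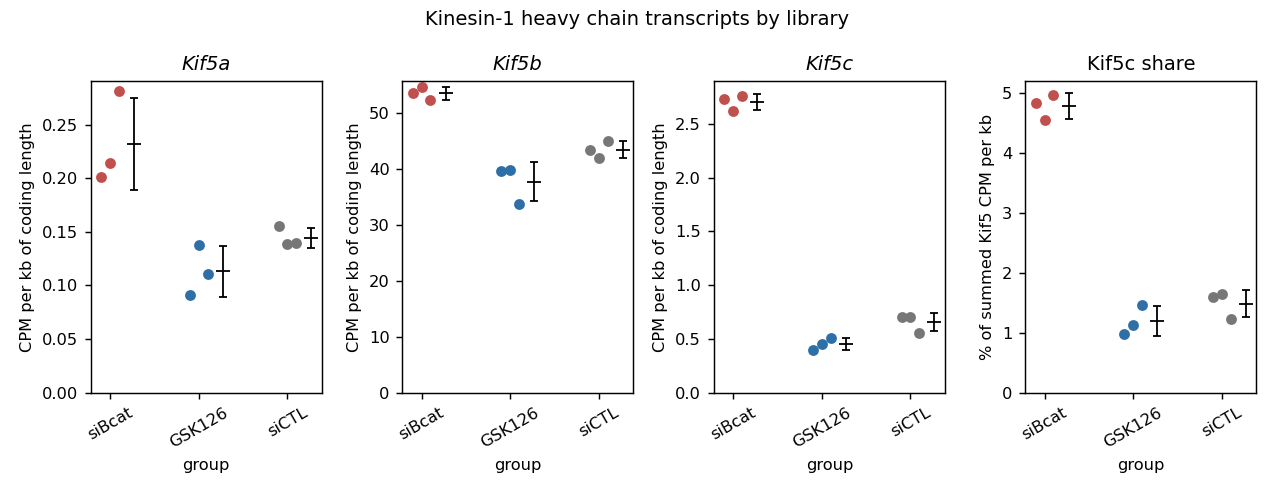
CPM per kb of coding length is given for Kif5a, Kif5b and Kif5c in each library, and at the right the Kif5c share of their sum, in percent; points are libraries and bars the mean ± SD. The siBcat libraries are highest in each panel, with a Kif5c share of 4.55 to 4.97%, against 0.976 to 1.47% in GSK126 and 1.22 to 1.64% in siCTL.

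Kinesin light chains, adaptors and the mitotic motor gene Cenpe formed a list of 11 tested genes. Cenpe is not among the 41 because its symbol does not match the Kif and Kifc rule. With siBcat against siCTL, 4 rose and 1 fell, where 17.7% and 17.5% of all genes were called, at a median of 0.13: Mapk8ip1, a scaffold that binds light chains, rose by 0.57 ± 0.09 (adjusted p = 0.000332), Trak2, the mitochondrial adaptor, by 0.32 ± 0.07 (0.00474), Klc1, a light chain, by 0.25 ± 0.06 (0.00447) and Klc4, another, by 0.19 ± 0.07 (0.046), while the scaffold Mapk8ip3 fell by 0.53 ± 0.08 (0.000145). The Klc4 call was lost in 11 of 21 alternatives, among them without any 1 of the siBcat libraries (0.0874 to 0.160), GSK126 replicate 1 (0.0531) or 2 (0.0505), or siCTL replicate 2 (0.197) or 3 (0.135), in a range of 0.0147 to 0.197. With GSK126 against siCTL, 1 rose and 2 fell, where 14.3% and 10.7% of all genes were called, at a median of -0.05. Mapk8ip3 fell by 0.33 ± 0.07 (adjusted p = 0.00698). Cenpe, the motor that brings chromosomes to the spindle equator, rose by 0.27 ± 0.07 (adjusted p = 0.0121), a call lost without siCTL replicate 1 (0.0597) or replicate 2 (0.0539), in a range of 0.00151 to 0.0597. Spag9, a scaffold, fell by 0.29 ± 0.09 (adjusted p = 0.0423), in a range of 0.000502 to 0.107; its call was lost without any 1 of the siCTL libraries (0.0871 to 0.107) or the siBcat libraries (0.0551 to 0.0625), with no filter (0.0542) and with only the 2 groups compared (0.0679). Without GSK126 replicate 3 the Spag9 change was smaller, at -0.16 (adjusted p = 0.00155).

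Kinesin-2 is built from Kif3a with Kif3b or Kif3c. Kif3a had 39.8, 41.7 and 41.2 CPM in siBcat, 46.2, 45.8 and 47.9 CPM in GSK126 and 47.2, 45.3 and 46.4 CPM in siCTL. The siBcat libraries were below both other groups, which overlapped. The fall with siBcat was -0.18 ± 0.05 (adjusted p = 0.0194), lost without siCTL replicate 1 (0.0689), siBcat replicate 1 (0.0701) or siBcat replicate 3 (0.0573) and with the trend on coding length removed (0.206), in a range of 0.00394 to 0.206. Against GSK126 the difference was -0.19 ± 0.05 (adjusted p = 0.0123), lost without siBcat replicate 1 (0.0633) and with the trend on coding length removed (0.0664), in a range of 0.00306 to 0.0664.

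Kif3c fell with GSK126 and had 44.4, 45.3 and 46.3 CPM in siBcat, 42.4, 41.7 and 37.4 CPM in GSK126 and 51.4, 51.8 and 49.4 CPM in siCTL, with no overlap between groups. The GSK126 change was -0.33 ± 0.06 (adjusted p = 0.0017). With siBcat it was -0.17 ± 0.06 (adjusted p = 0.0482), a call lost in 12 of 21 alternatives, among them without any 1 of the siCTL libraries (0.0618 to 0.122), the siBcat libraries (0.0918 to 0.128) or GSK126 replicates 1 (0.0517) and 2 (0.0553), in a range of 0.00513 to 0.200. The 0.16 ± 0.06 by which siBcat was above GSK126 (adjusted p = 0.0462) was lost in 13 of 21 alternatives, among them without any library other than GSK126 replicate 1, in a range of 0.0104 to 0.206; without GSK126 replicate 3 it was 0.11 (0.0896). Exons of Kif3c share 40.7% of their bases with transcripts on the opposite strand. Kif3b was at -0.10 with siBcat (adjusted p = 0.152) and -0.07 with GSK126 (0.358). The siBcat value of Kif3b was called lower without GSK126 replicate 3 (-0.11, adjusted p = 0.0238) and with only the 2 groups compared (0.0225), in a range of 0.0225 to 0.576.

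Of the kinesin-3 motors, which carry endosomes and vesicles, Kif13a, a motor of recycling endosomes, fell with siBcat. It had 41.7, 40.2 and 42.1 CPM in siBcat, 54.9, 56.2 and 43.6 CPM in GSK126 and 49.5, 50.6 and 50.1 CPM in siCTL. The siBcat libraries were lowest, and GSK126 replicate 3 lay far below the other two of its group. The change with siBcat was -0.28 ± 0.08 (adjusted p = 0.0204), lost without siCTL replicate 2 (0.0560), siCTL replicate 3 (0.0531), siBcat replicate 2 (0.0807) or siBcat replicate 3 (0.0538), in a range of 3.07e-05 to 0.0807. With GSK126 it was 0.04 ± 0.08 (adjusted p = 0.738), and without GSK126 replicate 3 it was called higher (0.0304), in a range of 0.0304 to 0.944. Against GSK126, siBcat was lower by 0.32 ± 0.08 (adjusted p = 0.00788).

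Kif13b, a motor for lipid messengers and membrane scaffolds, had 53.4, 51.0 and 55.1 CPM in siBcat, 57.4, 57.5 and 36.4 CPM in GSK126 and 71.9, 70.5 and 68.7 CPM in siCTL. Both treatments lay below siCTL without overlap, and the low GSK126 library was replicate 3. With GSK126 the change was -0.48 ± 0.14 (adjusted p = 0.0359), lost without siCTL replicate 1 (0.0865), 2 (0.0792) or 3 (0.0854) or siBcat replicate 3 (0.0510) and with no filter (0.0891), in a range of 4.76e-05 to 0.0891. Without GSK126 replicate 3 the change was smaller, at -0.29 (adjusted p = 4.76e-05). With siBcat it was -0.40 ± 0.14 (adjusted p = 0.0534), and 10 of 21 alternatives passed the threshold, among them the one without GSK126 replicate 3 (5.22e-08), in a range of 5.22e-08 to 0.136. That library is in neither group of the siBcat comparison and enters it through the shared fit.

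Kif1b, Kif1c and Kif16b, the other kinesin-3 motors tested, were not called against siCTL. Their log2 values were -0.03, 0.03 and -0.09 with siBcat (adjusted p = 0.861, 0.615 and 0.406) and -0.20, -0.02 and -0.04 with GSK126 (adjusted p = 0.182, 0.768 and 0.703). Against GSK126, Kif16b in siBcat was at -0.04 (adjusted p = 0.686), and at -0.14 and called lower without GSK126 replicate 3 (0.0162), in a range of 0.0162 to 0.972. Kif1b, a motor of synaptic vesicle precursors and mitochondria, had 146.7, 141.4 and 143.1 CPM in siBcat, 135.3, 145.9 and 100.6 CPM in GSK126 and 145.1, 147.7 and 146.8 CPM in siCTL. GSK126 replicate 3 was again the low library; without GSK126 replicate 2 the difference from siCTL was called lower (adjusted p = 0.0342, in a range of 0.0342 to 0.5). Of the minus-end motors, Kifc2 fell with siBcat by 0.61 ± 0.19 (adjusted p = 0.0234), on 58 to 106 counts per library, and lost its call without siCTL replicate 1 (0.0967) or 2 (0.0619), and without siBcat replicate 2 (0.0822) or 3 (0.0641), in a range of 0.0113 to 0.0967. Kifc2 stood at -0.52 with GSK126 (adjusted p = 0.0589), and was called lower without siCTL replicate 3 (0.0317) and with the trend on coding length removed (0.0368). Kifc3 stood at 0.07 with siBcat and 0.19 with GSK126 (adjusted p = 0.463 and 0.0621). With GSK126, Kifc3 was called higher under upper quartile scaling (0.0427), library size only (0.0272) and without siCTL replicate 1 (0.0472).

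Of 4 ciliary and Hedgehog-related kinesins tested, 2 rose with GSK126, where 14.3% of all genes rose. With siBcat against siCTL 0 were called by the main edgeR fit, DESeq2 or limma-voom, 1 of them having an unadjusted p under 0.05. Scaled by library size only, Kif9 was called lower with siBcat, at -0.53 (adjusted p = 0.0440). In siBcat against GSK126, 3 of 4 were lower, against 21.9% of all genes; that comparison is the test of the difference between treatments. Kif7, the ciliary-tip kinesin that regulates Gli proteins, had 10.6, 10.3 and 10.4 CPM in siBcat, 13.1, 12.9 and 12.9 CPM in GSK126 and 11.1, 11.1 and 8.95 CPM in siCTL. The GSK126 libraries were above both other groups. The rise was 0.32 ± 0.09 (adjusted p = 0.0207), lost without siCTL replicate 3 (0.0745) or GSK126 replicate 1 (0.0564) and with only the 2 groups compared (0.0571), in a range of 0.00931 to 0.0745, and siBcat was lower than GSK126 by 0.32 ± 0.09 (adjusted p = 0.0139). Exons of Kif7 share 20.3% of their bases with genes on the opposite strand, among them Ticrr.

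Kif24, which keeps cilia from forming at the mother centriole, had 2.73, 2.55 and 2.63 CPM in siBcat, 4.59, 5.15 and 3.30 CPM in GSK126 and 3.26, 2.64 and 2.38 CPM in siCTL. GSK126 was above the other groups, narrowly so for replicate 3. It rose with GSK126 by 0.65 ± 0.17 (adjusted p = 0.0159), lost without siCTL replicate 2 (0.0640) or 3 (0.0730) or GSK126 replicate 1 (0.0504) or 2 (0.0565), in a range of 0.0004 to 0.0730. Against GSK126, siBcat was lower by 0.72 ± 0.17 (adjusted p = 0.00529). Kif9, of motile cilia, was lower in siBcat than in GSK126 by 0.54 ± 0.19 (adjusted p = 0.0361), lost in 8 of 21 alternatives, among them without GSK126 replicate 1 (0.116) or 2 (0.0886) or any siBcat library (0.0956, 0.0903 and 0.0515), and with only the 2 groups compared (0.0511) or the length trend removed (0.0556), in a range of 0.0187 to 0.116. Kif6, at 24 to 50 counts per library, was not called in any comparison.

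Intraflagellar transport genes encode the trains that kinesin-2 moves into cilia. Of 19 tested, 2 rose and 6 fell with siBcat against siCTL, where 17.7% of all genes were called higher and 17.5% lower, at a median of -0.05. With GSK126, 6 fell, where 10.7% of all genes were called lower, at a median of -0.16. With siBcat, Ift88 fell by 0.61 ± 0.10 (adjusted p = 0.000493), Ift80 by 0.44 ± 0.07 (0.000246) and Dync2li1, a light chain of the returning dynein, by 0.41 ± 0.07 (0.000687). With GSK126, Ift122 fell by 0.23 ± 0.06 (adjusted p = 0.0101) and Ift80 by 0.26 ± 0.07 (0.0112).

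Of 11 Hedgehog pathway genes, 3 rose and 3 fell with siBcat against siCTL, where 17.7% and 17.5% of all genes were called, and 5 rose and 1 fell with GSK126, where 14.3% and 10.7% were called. Hhip, a target gene that binds Hedgehog ligands, had 3.56, 3.97 and 3.19 CPM in siBcat, 6.85, 6.75 and 6.48 CPM in GSK126 and 2.04, 2.69 and 2.16 CPM in siCTL, and rose with both treatments (0.64 ± 0.14, adjusted p = 0.0034, and 1.54 ± 0.13, 5.06e-06). Gli2, a transcription factor, had 0.536, 0.283 and 0.131 CPM in siBcat, 2.33, 2.39 and 1.75 CPM in GSK126 and 0.498, 0.441 and 0.424 CPM in siCTL. Its GSK126 libraries were above all others, with a rise of 2.24 ± 0.32 (adjusted p = 0.000286). With siBcat, the co-receptors Cdon and Gas1 fell by 0.82 ± 0.08 (adjusted p = 9.14e-06) and 0.60 ± 0.07 (2.65e-05), while Boc, a co-receptor related to Cdon, rose by 0.46 ± 0.10 (0.00351).

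Among the remaining kinesins, Kif2a, a microtubule depolymerase of interphase and spindle poles, moved in opposite directions with the treatments. It had 50.8, 54.0 and 53.6 CPM in siBcat, 40.9, 40.4 and 40.0 CPM in GSK126 and 45.8, 44.4 and 46.9 CPM in siCTL, with no overlap between groups. The change was 0.21 ± 0.05 with siBcat (adjusted p = 0.00895), lost without siCTL replicate 2 (0.0604), in a range of 0.000815 to 0.0604. With GSK126 it was -0.18 ± 0.05 (adjusted p = 0.0293), lost without siCTL replicate 1 (0.0693) or 3 (0.0869) or GSK126 replicate 1 (0.0501) or 2 (0.0553), and with upper quartile scaling (0.0568) or library size only (0.0863), in a range of 0.00844 to 0.0869. Set against each other, siBcat was higher by 0.38 ± 0.05 (adjusted p = 9.33e-05). Exons of Kif2a share 19.2% of their bases with Dimt1 on the opposite strand, and its relative in mitosis, Kif2c, rose with GSK126.

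Kif26b, an atypical kinesin needed for kidney development in mice, had 15.8, 15.5 and 14.5 CPM in siBcat, 22.3, 22.0 and 16.6 CPM in GSK126 and 13.3, 12.8 and 10.1 CPM in siCTL. Groups did not overlap, and GSK126 replicate 3 was the lowest of its group. It rose with GSK126 by 0.75 ± 0.12 (adjusted p = 0.000898). With siBcat the value was 0.34 ± 0.13 (adjusted p = 0.0519), called higher in 7 of 21 alternatives, among them without siCTL replicate 1 (0.0445) or GSK126 replicate 3 (0.00287), in a range of 0.00134 to 0.194. It was lower in siBcat than in GSK126 by 0.41 ± 0.12 (adjusted p = 0.0181), lost without GSK126 replicate 1 (0.0787) or 2 (0.0636) or siBcat replicate 2 (0.0509) or 3 (0.0729), in a range of 6.73e-05 to 0.0787.

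Kif21b, a motor that limits microtubule growth, had 1.31, 1.46 and 1.53 CPM in siBcat, 2.54, 3.63 and 2.37 CPM in GSK126 and 1.90, 2.34 and 1.61 CPM in siCTL. Groups did not overlap, and the siBcat level was 0.98 ± 0.20 below GSK126 (adjusted p = 0.00199). Neither difference from siCTL passed the threshold, at -0.44 with siBcat (adjusted p = 0.128) and 0.54 with GSK126 (0.0627); the second was called without GSK126 replicate 3, in a range of 0.0135 to 0.235. Kif21a, its close relative, was at -0.10 with siBcat and 0.06 with GSK126 against siCTL, neither past the threshold (adjusted p = 0.43 and 0.693). Against GSK126, Kif21a in siBcat was at -0.16 (adjusted p = 0.196), and at -0.26 and called lower without GSK126 replicate 3 (0.00664), in a range of 0.00664 to 0.636.

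The 7 kinesins that were not tested were at or near 0. Kif12 and Kif2b had 0 counts in all libraries, and Kif26a had at most 2. Kif19a and Kif27, both of cilia, had 0 to 10 and 0 to 14 counts, and Kif17, of neuronal dendrites and cilia, had 2 to 10. Kif1a, the kinesin-3 motor of neurons, had 6, 14 and 8 counts in siBcat libraries, 8, 6 and 4 in GSK126 libraries and 0, 0 and 4 in siCTL libraries, levels at which no comparison was made.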

How the data were processed

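The submitters' processing notes name the mm10 build and the tools HTSeq, TopHat2 2.0.6 and bcl2fastq. Their order, the annotation and any use of strand were not stated there or in the labels. The authors deposited 1 table with a raw count per gene and library; their RPKM columns, and 6 other columns of per-sample values, were not used. Positions come from GENCODE M21, which matched all 41 kinesins. The kinesins, their classes and the partner and marker lists were chosen with earlier results of these data known.

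Tests used R 4.3.3 and edgeR 4.0.16 with filterByExpr by group (minimum count 10, total 15), TMM scaling and a robust quasi-likelihood fit over all 9 libraries, with 6 residual degrees of freedom and no replicate block. This tested 13240 genes, with a common biological coefficient of variation of 8.12%. The Benjamini-Hochberg adjustment ran over these genes in each comparison. Every kinesin past the threshold in any comparison is named, with all library values for the 6 smallest p values per comparison, and up to 4 genes per partner list. Other genes given by library, and Klc4, were chosen after their values were seen. The replicate numbers come from the titles; same-numbered libraries deviated with correlations of -0.03 to 0.07, so they were not treated as pairs. Libraries of a group differed by more than sampling noise, with 2.43 to 28.6 units of chi-square per degree of freedom. The chi-square was computed on halved counts, since all deposited counts were even.

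Alternatives were other scalings, filters, DESeq2 1.42.0, limma-voom (limma 3.58.1), the 2 groups alone, robust estimation off, a replicate block, halved counts, a removed trend on coding length and each library left out in turn. The procedure was tested on simulated data.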

Additional observations from a re-analysis of the deposited data

How the results depend on the processing

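Each kinesin result was recomputed under 21 alternatives, 9 of them leaving out a library, except Kif6, which the filter of 1 CPM removed and which had 20. Of 102 gene results, 53 were calls, 17 of these were lost under at least 1 alternative, and 0 changed direction. The 13 mitotic kinesins higher with GSK126 than siCTL were called under every alternative. The kinesins called higher with GSK126 numbered 14 to 18 when a library was left out, and those called lower 2 to 5, against 5 with all libraries; the 2 were without siCTL replicate 1. Scaling by library size only gave 3 lower. In siBcat against siCTL, the higher calls ran from 3 (without siCTL replicate 2) to 7 and the lower from 0 (without siBcat replicate 3) to 6 when a library was left out. The mitotic kinesins higher with siBcat were 1 to 2 in these, 2 with only the 2 groups compared and 5 with the trend on coding length removed, which gave 10 kinesins higher. In siBcat against GSK126, 14 to 20 kinesins were lower without a library, and 9 to 11 mitotic ones. With the replicate block, siBcat against siCTL gave 6 higher and 4 lower, GSK126 against siCTL 17 and 5, with 13 mitotic kinesins higher, and siBcat against GSK126 4 and 17, with 11 mitotic kinesins lower. Kinesin calls lost with the block were those of Kif9 in siBcat against GSK126 (adjusted p = 0.0510) and of Kif3c in siBcat against GSK126 (0.0553) and against siCTL (0.0608), and calls gained were those of Kif13b (0.0356) and Kif26b (0.0105) in siBcat against siCTL and Kif21b in GSK126 against siCTL (0.0474). The cause of these shifts was not tested. Scalings moved the median of all genes by at most 0.08 on the log2 scale. Counts of 24 to 50 for Kif6 limit what could be seen there, and the p values cover only the spread between these cultures.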

Other observations

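Dynein and its cofactor dynactin move along microtubules toward the minus end, opposite to most kinesins. Of 21 dynein and dynactin genes tested, 6 rose and 1 fell with siBcat against siCTL, where 17.7% and 17.5% of all genes were called, at a median log2 fold change of 0.09. The dynactin subunits Dctn5 and Actr1b rose by 0.48 ± 0.05 (adjusted p = 1.89e-05, edgeR) and 0.40 ± 0.05 (2.73e-05), and Dynll2, a light chain, by 0.43 ± 0.06 (0.00011). Nde1, which binds dynein at kinetochores and centrosomes, fell by 0.42 ± 0.05 (6.69e-05). With GSK126 against siCTL, 2 of the 21 fell, where 10.7% of all genes fell, Dynlt3 by 0.26 ± 0.05 (adjusted p = 0.00417) and Dync1li2 by 0.17 ± 0.05 (0.0167), at a median of -0.01. In siBcat against GSK126, 11 were higher and 2 lower, where 19.3% and 21.9% of all genes were called. The summed level was 3445 to 3506 CPM in siBcat, 2954 to 3035 CPM in GSK126 and 3092 to 3140 CPM in siCTL, with no overlap between groups.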
